A study of Homo sapiens with 4 samples.

Results

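The 39 genes described here encode the DNA replication machinery other than the MCM helicase subunits. They were taken as a list of symbols, all 39 matched a RefSeq gene on GRCh38.p14, and they are 39 of 20037 protein-coding genes on the assembled chromosomes. FOXK1, a forkhead transcription factor, was mapped by ChIP-seq (sequencing of immunoprecipitated chromatin) in HK-2 cells, an immortalised human proximal tubular epithelial line. Cells were kept untreated or were treated with TGF-β1, a profibrotic cytokine, at 10 ng/ml for 24 h, and chromatin was digested with micrococcal nuclease and sonicated before the immunoprecipitation. The 4 libraries were 1 FOXK1 and 1 input library for each condition, so no value below has a replicate and no difference between the conditions was tested. The deposited data were a list of peaks for untreated cells (the control list) and another for TGF-β1 (the treated list), each peak with its position and the authors' pileup height, the number of stacked fragments at its highest point. Sequencing depth is unknown, so heights were read within each list, and a pair of heights from both lists does not measure a change.

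Replication begins when the origin recognition complex, with CDC6 and CDT1, loads the MCM helicase onto chromatin in G1. The DBF4-dependent kinase CDC7, CDC45 and the GINS complex then activate the helicase, primase and polymerase alpha lay down primers, and polymerases delta and epsilon extend them with the sliding clamp PCNA, which the replication factor C complex loads. Many of these genes are known targets of E2F factors and are expressed in cycling cells. FOXK1 and its paralog FOXK2 bind forkhead sites in promoters and are known for roles in autophagy and glucose metabolism.

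A gene-end peak, meaning a peak that overlaps a window reaching 1 kb out and 1 kb in from an annotated end of the gene, was found in the control list for 38 of the 39 genes, against 75.3% of all protein-coding genes. In the treated list it was found for 36 of 39, against 74.6%. All 36 were in both lists, against 64.0% of all protein-coding genes. RFC2 and RPA3 had a gene-end peak in the control list only, and ORC1 had none. The peaks were mostly of middling height. A height is given for each gene as that of its highest gene-end peak, and the medians over genes with a peak were 10 in the control and 9 in the treated list, for these genes and for all protein-coding genes alike. Strong peaks, defined as the 10000 highest peaks of each list with ties kept, began at a height of 17 in the control and 15 in the treated list. Such a peak was found at 7 replication genes in the control list, against 17.0% of all protein-coding genes, and at 9 in the treated list, against 15.7%, and 4 genes had it in both, against 11.9%. As shares of the 39 genes these counts were 17.9%, 23.1% and 10.3%. They were thus close to the background of all genes in the control list and in both lists. In the treated list the share was higher, which was not tested. A height of 10 or more was found at 24 genes in the control list, against 39.9%, and at 17 in the treated list, against 32.7%. None of the 39 genes reached a height of 30 in either list, which 5.13% and 3.67% of all protein-coding genes did.

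The plot of height classes shows where the genes lay. In the control list 10 of the 39 had a height of 8 to 9 and 15 a height of 10 to 14, which is 25.6% and 38.5% of them against 10.6% and 18.0% of all protein-coding genes. Only 4 genes had a control peak under 8, GINS4 and RFC5 at 4 and CDT1 and PRIM2 at 7. The treated list was more spread out, with 10 genes at 5 to 7, 8 at 8 to 9 and 8 at 10 to 14, which is 25.6%, 20.5% and 20.5% against 22.7%, 11.8% and 17.0% of all protein-coding genes.

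**Figure D1:**
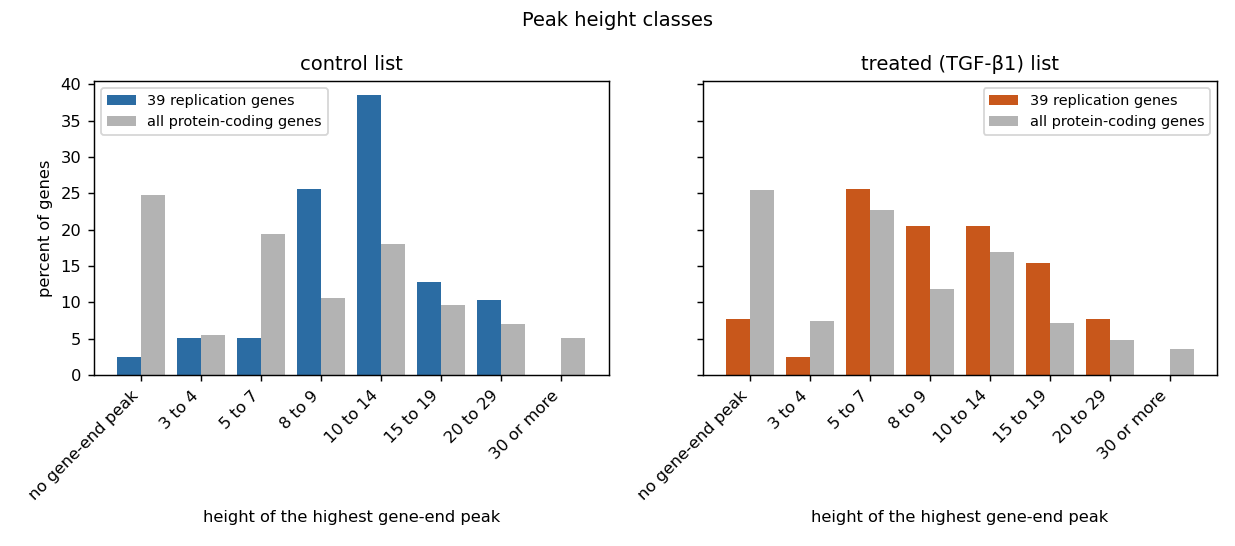
Percent of the 39 replication genes (coloured bars) and of all 20037 protein-coding genes (grey bars) in each class of highest gene-end peak height, in the control list (left) and the treated list (right). In the control list 38.5% of the replication genes are at 10 to 14, and in neither list is a replication gene at 30 or more.

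Strong sites and sites of middling height show what lies under these peaks; the stretches below are RefSeq sequence (GRCh38.p14) of up to 250 bases directly before the annotated start, trimmed where another annotated gene begins. Capitals mark matches to a CCAAT box (CCAAT or ATTGG) or to an E2F motif (TTTCCCGC, TTTGGCGC, TTTCGCGC and their reverse complements GCGGGAAA, GCGCCAAA and GCGCGAAA). ORC6 (chr16:46689409-46689658, + strand), DBF4 (chr7:87876361-87876492, + strand) and RFC4 (chr3:186806483-186806732, - strand) were strong in both lists, and their stretches hold no E2F match. RFC3 (chr13:33817899-33818148, + strand), POLA1 (chrX:24693668-24693917, + strand) and PCNA (chr20:5126623-5126872, - strand) had middling peaks, and each stretch holds an E2F match. These genes are picked examples, and the higher peaks of ORC4 and POLD2 are not among them. Other genes break the contrast. ORC3, strong in the control list, held an E2F match, while CDC45, RFC1 and FEN1 were not strong and held none. Counts over all the promoters are given below.
ORC6: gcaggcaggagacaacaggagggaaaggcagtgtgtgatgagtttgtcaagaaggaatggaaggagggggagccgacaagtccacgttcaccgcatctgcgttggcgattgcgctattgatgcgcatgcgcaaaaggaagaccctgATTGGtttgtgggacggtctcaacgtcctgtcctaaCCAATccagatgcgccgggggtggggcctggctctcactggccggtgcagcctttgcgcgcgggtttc
DBF4: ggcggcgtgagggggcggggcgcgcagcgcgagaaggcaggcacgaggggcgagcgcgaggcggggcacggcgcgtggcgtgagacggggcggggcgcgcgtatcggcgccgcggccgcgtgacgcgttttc
RFC4: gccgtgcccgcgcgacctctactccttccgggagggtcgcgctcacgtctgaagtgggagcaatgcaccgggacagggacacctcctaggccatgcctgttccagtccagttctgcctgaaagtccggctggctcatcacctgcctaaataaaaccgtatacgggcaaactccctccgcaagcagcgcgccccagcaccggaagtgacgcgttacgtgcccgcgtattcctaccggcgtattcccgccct
RFC3: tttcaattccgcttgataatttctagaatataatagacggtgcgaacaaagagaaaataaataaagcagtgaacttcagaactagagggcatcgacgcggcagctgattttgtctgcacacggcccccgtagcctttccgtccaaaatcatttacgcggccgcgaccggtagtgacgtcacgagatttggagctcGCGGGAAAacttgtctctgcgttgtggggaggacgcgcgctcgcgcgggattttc
POLA1: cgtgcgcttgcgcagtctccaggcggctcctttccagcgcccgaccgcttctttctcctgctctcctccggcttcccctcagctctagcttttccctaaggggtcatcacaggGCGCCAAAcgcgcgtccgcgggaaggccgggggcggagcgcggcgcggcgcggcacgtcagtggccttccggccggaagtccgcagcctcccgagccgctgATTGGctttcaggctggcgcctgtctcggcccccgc
PCNA: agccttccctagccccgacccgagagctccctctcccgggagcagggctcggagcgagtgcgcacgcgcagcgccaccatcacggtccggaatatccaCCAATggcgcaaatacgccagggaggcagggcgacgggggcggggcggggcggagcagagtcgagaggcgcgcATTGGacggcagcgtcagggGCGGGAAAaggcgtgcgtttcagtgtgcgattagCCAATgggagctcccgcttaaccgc
The control peaks of ORC6, DBF4, RFC4, RFC3 and PCNA covered every base of these stretches, and that of POLA1 covered 219 of 250. The TGF-β1 peaks covered all bases for ORC6, DBF4 and POLA1, 230 of 250 for RFC3 and 127 of 250 for RFC4. The PCNA stretch had no TGF-β1 peak, since the peak taken for PCNA, 1 of 2 tied at a height of 13, began further upstream. Another annotated start of PCNA was covered by a TGF-β1 peak of 13.

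In origin recognition and licensing, ORC4 had the highest gene-end peak of the 39 genes in each list. ORC4, a subunit of the origin recognition complex, had a height of 25 in the control list, which was above the value of 92.4% of all protein-coding genes, and 23 in the treated list, above 93.7%. Its control peak lay on chromosome 2 from 148019682 to 148022065 and its TGF-β1 peak from 148019900 to 148021087, and both also lay at an end of MBD5, the gene next to it. ORC6, the smallest subunit of the complex, had 24 in the control list (chromosome 16, 46688207 to 46691037) and 17 in the treated list (46688385 to 46690361), at a site shared with VPS35, a retromer subunit. The sites of ORC4 and ORC6 were strong in both lists, and the peaks of both lists overlapped at each.

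The remaining subunits lay lower. ORC3 had 17 and 9 in the control and treated lists (control peak on chromosome 6, 87589295 to 87590334), shared with RARS2, the mitochondrial arginyl-tRNA synthetase gene, and was strong in the control list only. ORC5 had 13 and 5, and ORC2 had 8 and 6. Of the other licensing genes, GMNN, which encodes geminin, the inhibitor of CDT1, had 14 and 16 (TGF-β1 peak on chromosome 6, 24775359 to 24776082) and was strong in the treated list only. CDC6, an ATPase that helps to load the helicase, had 11 and 9, and CDT1, its partner in loading, had 7 and 8. For CDC6 and CDT1 the highest peaks of both lists lay at opposite ends of the gene, so their heights describe different places. At the CDC6 start the treated list had 8, and at the CDT1 start the control list had 6. ORC subunits thus ran from no gene-end peak to the highest gene-end peak of the 39 genes.

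ORC1, the largest ATPase subunit, is counted as having no gene-end peak because of where its annotation ends. RefSeq places an annotated ORC1 start inside the span of the gene, and the 1 kb around that start held a control peak of 15 and a TGF-β1 peak of 11. Its promoter was also among only 2 of the 35 with a forkhead core match (TAAACA or its reverse complement TGTTTA). The other was that of PRIM2, the large primase subunit, whose annotated starts likewise lie inside the gene, with 11 and 12 around them against 7 and 6 at the gene ends. Both matches are shown with 10 bases on either side (GRCh38.p14), the match in capitals, ORC1 at chr1:52404631-52404656 on the - strand and PRIM2 at chr6:57314663-57314688 on the + strand.
ORC1: gaagtttcacTAAACAgcttaggcga
PRIM2: aaaacttacaTGTTTAtgtatgtttt
The first base of the match was at -223 from the ORC1 start and at -132 from the PRIM2 start. Peaks covering the ORC1 match had heights of 15 and 11 in the control and treated lists, and those at the PRIM2 match 10 and 5.

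**Figure D2:**
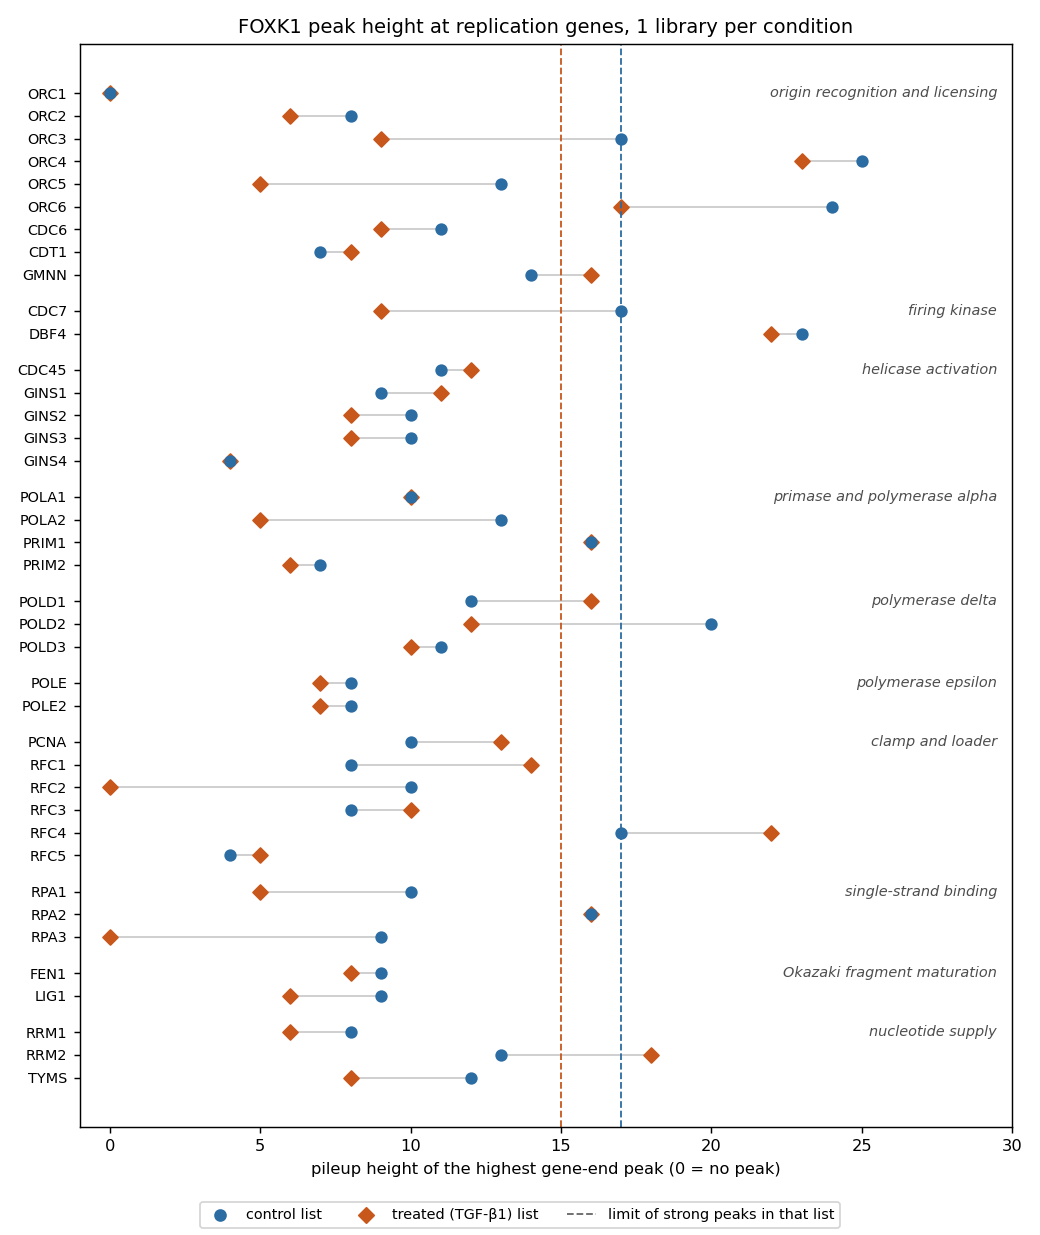
Pileup height of the highest gene-end peak of each of the 39 genes, grouped by role, in the control list (blue circles) and the treated list (orange diamonds), with 0 for no peak; dashed lines mark where strong peaks begin in each list (17 and 15). ORC4, ORC6, DBF4 and RFC4 lie at or right of both lines in both lists, and most other genes lie between 5 and 16.

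Both genes of the firing kinase had a strong control peak. DBF4, the regulatory subunit, had 23 in the control list (chromosome 7, 87875236 to 87877146) and 22 in the treated list (87875272 to 87877218), above 90.9% and 93.0% of all protein-coding genes. That site was shared with SLC25A40, a mitochondrial carrier gene. CDC7, the catalytic subunit, had 17 and 9, but the control peak (chromosome 1, 91501297 to 91501567) and the TGF-β1 peak (91500096 to 91500732) did not overlap. The highest TGF-β1 peak at the CDC7 control site had a height of 4, and the highest control peak at the TGF-β1 site had 10.

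Genes of helicase activation had peaks in both lists, none of them strong. CDC45, which joins the helicase at firing, had 11 and 12 at a site shared with UFD1. Of the GINS subunits, GINS1 had 9 and 11, GINS2 had 10 and 8, GINS3 had 10 and 8 and GINS4 had 4 and 4. The 2 GINS4 values are among the lowest of all 39 genes, and its highest peaks of both lists, like those of GINS3, did not overlap.

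Of the primase and polymerase genes, PRIM1, POLD1 and POLD2 had a strong peak in 1 list each. PRIM1, the catalytic primase subunit, had 16 and 16 (TGF-β1 peak on chromosome 12, 56751525 to 56752805), and counts as strong only with TGF-β1, where the limit was 15 and not 17. POLA1, the catalytic subunit of polymerase alpha, had 10 and 10, and POLA2, its accessory subunit, had 13 and 5. In the polymerase delta genes, POLD2 had 20 and 12 (control peak on chromosome 7, 44122808 to 44124814) and was strong in the control list only. POLD1, the catalytic subunit, had 12 and 16 (TGF-β1 peak on chromosome 19, 50384390 to 50385013) and was strong in the treated list only, while POLD3 had 11 and 10. The polymerase epsilon genes were low, with 8 and 7 for POLE and 8 and 7 for POLE2. The POLE peaks lay at the end of the gene away from its start, near P2RX2, and at the POLE start both lists had 6.

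In the clamp and its loader, PCNA had 10 and 13, and both peaks also lay at an end of CDS2. RFC4, a loader subunit, had 17 in the control list (chromosome 3, 186806293 to 186807161) and 22 in the treated list (186806606 to 186807647). RFC4 was the only gene with overlapping strong peaks in both lists that were shared with no other protein-coding gene. RFC1, the large subunit, had 8 and 14, RFC3 had 8 and 10, and RFC5 had 4 and 5 at the end away from its start. RFC2 had 10 over its start in the control list and none within the windows of the treated list, where the nearest peak had a height of 16 and lay 2347 bp away. The 5 clamp and loader genes with a peak in both lists all had the larger number in the treated list, whereas of the 36 such genes in the whole list 11 did, 21 had the larger number in the control list and 4 were equal. Among all protein-coding genes with a peak in both lists the larger number was in the control list for 7714 and in the treated list for 3649. The order at the clamp and loader genes depended on the window, since PCNA had 18 and 14 with a window of 2 kb and 14 and 14 around its starts alone, and RFC5 had no peak around its start, its reported peaks being far from the start and not overlapping. With 1 library per condition and unknown depth this order was not tested.

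For the single-strand binding protein RPA, RPA2 had 16 and 16 (TGF-β1 peak on chromosome 1, 27914535 to 27915098), and its peaks of both lists overlapped. Like PRIM1, it counts as strong in the treated list only because the limit there was 15 and not 17. RPA1, the largest subunit, had 10 over its start in the control list and 5 at the far end of the gene in the treated list, which had no peak in the 1 kb around the start. RPA3 had a control peak of 9 that lay 710 bp beyond the gene, just inside the 1 kb window. Its nearest TGF-β1 peak, of height 21, lay 1672 bp inside the other end, just outside the window. The nearest peaks to the ORC1 ends were likewise just outside, at 1099 bp with height 5 in the control list and 1504 bp with height 6 in the treated list.

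In lagging strand maturation FEN1, the flap endonuclease, had 9 and 8 and LIG1, the ligase that seals the fragments, had 9 and 6. Both sites were shared, with TMEM258 and ZSWIM9. The nucleotide supply genes were RRM2, the small subunit of ribonucleotide reductase, with 13 and 18, RRM1, its large subunit, with 8 and 6, and TYMS, thymidylate synthase, with 12 and 8. The RRM2 peaks overlapped (chromosome 2, 10120077 to 10123338 in the control list and 10120232 to 10121604 in the treated list), but the control peak covered the start and the TGF-β1 peak ended upstream of it. With a window of 500 bp the RRM2 value in the treated list was 8, which is not strong.

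Neighbouring genes took part in many of these sites. The highest peak also lay at an end of another protein-coding gene for 13 of 38 genes in the control list and 10 of 36 in the treated list, which is 34.2% and 27.8% against 26.1% and 25.7% of all protein-coding genes with a peak. Of the 4 genes that were strong in both lists, ORC4, ORC6 and DBF4 were among them. When shared peaks were left out, a choice made after the values were seen, strong peaks remained at 3 genes in the control and 6 in the treated list, and only RFC4 had them in both. The same share was not computed for all protein-coding genes, so the loss cannot be called particular to replication genes. A peak between close gene ends cannot be assigned to either gene.

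The positions of the peaks relative to the start were near those of all genes. Strand and start were read from a set of promoter sequences that covers 35 of the genes and has no entry for GINS4, POLD3, RPA2 and RPA3. The highest peak lay at the start end, or spanned both ends, for 30 of 34 such genes in the control list, against 81.1% of all protein-coding genes, and for 29 of 33 in the treated list, against 80.7%. It covered an annotated start for 20 of 34 and 17 of 33, against 49.6% and 45.1%. The share of peaks 1000 bp wide or wider was 16 of 38 in the control list and 13 of 36 in the treated list, against 30.2% and 27.2%. The highest peaks of both lists overlapped for 26 of the 36 genes, which is 72.2% against 74.7% of all protein-coding genes with a peak in both lists. The 10 that did not overlap were CDC6, CDT1, CDC7, GINS3, GINS4, PRIM2, POLE2, RFC5, RPA1 and RRM1, all with heights of 11 or less except the CDC7 control peak. Across the 36 genes the heights of both lists had a Pearson correlation of 0.73 and a Spearman correlation of 0.65, against 0.93 and 0.79 across the 12832 protein-coding genes with a peak in both lists, whose range of heights is wider. These correlations are across genes of the same pair of libraries and describe them only.

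**Figure D3:**
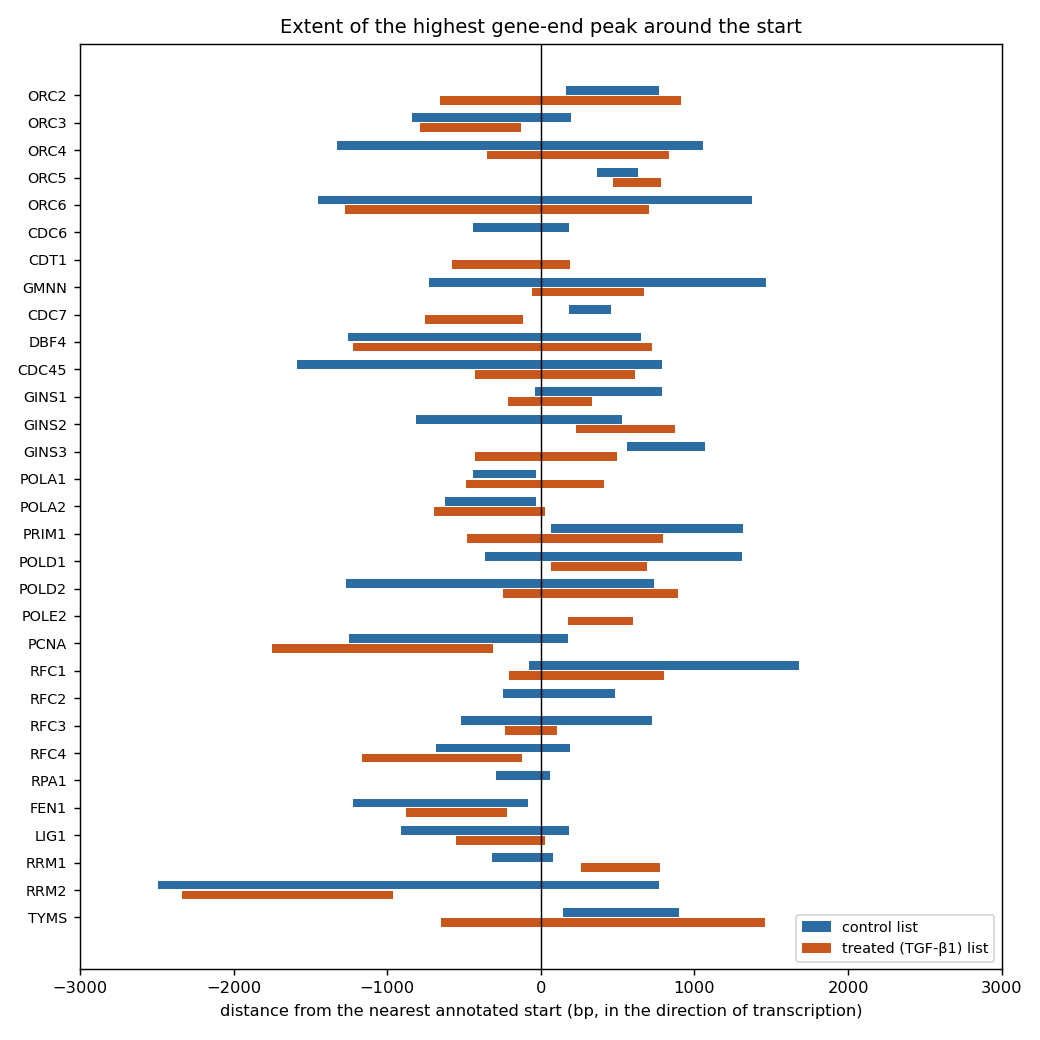
Extent of the highest gene-end peak around the nearest annotated start, in bp along the direction of transcription, for the 31 genes with such a peak within 3000 bp of a start, in the control list (blue) and the treated list (orange). The bars of ORC4, ORC6 and DBF4 span the start in both lists, while the TGF-β1 bar of RRM2 ends upstream of it.

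Strong peaks inside the genes, outside both windows, were found in 7 genes in the control list, against 13.7% of all protein-coding genes, and in 4 in the treated list, against 13.8%. The ORC2 gene held a peak of 28 and 25, 18.2 kb from its start end (control peak on chromosome 2, 200944722 to 200945423), well above its gene-end heights of 8 and 6. In POLA2 a peak of 27 and 27 lay 17.7 kb from the start end (chromosome 11, 65279631 to 65280424). RPA3 held a peak of 23 and 28 deep inside the gene (control peak on chromosome 7, 7693143 to 7694535) and another of 31 and 21 near an end of UMAD1. Inner peaks strong in the control list only were at POLA1 (30 against 7 at the same place in the treated list), PRIM2 (28 and 12), RRM1 (24 and 9), RRM2 (17 and 12) and RPA3 (30 and 7), and in the treated list only at LIG1 (22, with 5 in the control list). The RRM2 peak lay only 1031 bp from an annotated start, and it counted as a gene-end peak with a window of 2 kb. So did the RPA3 peak of 21 in the treated list. An inner peak of any height that was above the highest gene-end peak was found in 14 of 39 genes in the control list, against 40.0% of all protein-coding genes, and in 16 with TGF-β1, against 40.6%, so this too was near the background.

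The promoters shared features that the choice of genes did not use. Over the 300 bases from 250 before to 50 after the start, the 35 promoters had a median GC content of 65.7% and a median ratio of observed to expected CpG of 0.94, against 62.7% and 0.76 for 15842 protein-coding genes with a promoter sequence. A ratio of at least 0.6 was found for 33 of 35, or 94.3%, against 65.6%. The exceptions were ORC4 at 0.15 and PRIM2 at 0.00. ORC4 had the highest gene-end peak of these genes in each list (25 and 23). The gene-end peaks of PRIM2 were low (7 and 6), but they lay far from its annotated starts, around which the heights were 11 and 12. Among all 10387 genes with such CpG-rich promoters, 86.8% had a gene-end peak in the control and 85.8% in the treated list, against 32 and 31 of the 33 replication genes. Strong peaks were found at 24.0% and 22.1% of those genes and at 6 and 7 of the 33. Set beside genes of like CpG content, the share of replication genes with a peak of any height was thus nearer to the background, and the share with a strong peak was below or near it. Whether CpG content accounts for the occupancy was not tested.

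E2F matches were frequent in these promoters and forkhead matches were not. An E2F match on either strand was found in 14 of 35 promoters, or 40.0%, against 3.76% of all protein-coding promoters of the same length. The first base of the match lay between -137 and +8 from the start, with a median of -33. A forkhead core match was found in 2 of 35, against 9.02% of all promoters, and the longer forkhead motif GTAAACA, searched on both strands and containing the core, in 0 of 35, against 2.67%. A CCAAT box was found in 17 of 35, against 36.4%, and the CHR motif TTTGAA, also on both strands and known from genes of G2 and mitosis, in 2 of 35, against 12.2%. No matches of different motifs overlapped in these promoters. A match of letters is not a bound site.

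Replication genes with an E2F match in the promoter nearest the gene end had mostly middling heights. These genes were ORC3, CDC6, CDT1, GINS1, GINS2, GINS3, POLA1, POLA2, POLE, POLE2, PCNA, RFC3, LIG1 and TYMS, and both lists had a peak at each of these 14. Their control heights ran from 7 to 17 with a median of 10, and their TGF-β1 heights from 5 to 13 with a median of 8. The 21 genes without a match had control heights from 4 to 25 with a median of 12.5 over the 20 with a peak, and TGF-β1 heights from 5 to 23 with a median of 12 over the 19 with a peak. Only ORC3, in the control list, was strong among the 14, whereas 10 of the 21 were strong in at least 1 list. These counts rest on the promoter nearest the annotated gene end. When the promoters of every annotated start were searched, a choice made after the values were seen, GMNN and CDC7 also held a match, and 3 of 16 genes with a match and 8 of 19 without were strong in at least 1 list. Some heights of the 14 lie at the far end of the gene, those of POLE, the control heights of CDT1 and POLE2 and the TGF-β1 height of CDC6. With heights taken within 1 kb of a start, the medians with and without a match were 10 and 13 in the control list and 8 and 13 with TGF-β1. The ranges of both groups overlapped widely, and the difference was not tested because genes are not replicates. Among all protein-coding genes the order was the other way round, with strong control peaks at 26.0% of 596 genes with an E2F match and 17.9% of 15246 without, and strong TGF-β1 peaks at 23.5% and 16.4%. Strong in at least 1 list were 181 of those 596 genes and 3321 of those 15246. With every annotated start searched, they were 213 of 717 genes with a match and 3289 of 15125 without. The longer forkhead motif went with strong peaks in the genome as a whole, at 35.0% of 423 genes with a match in the control list and 17.8% of 15419 without, and at 32.9% and 16.2% in the treated list.

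**Figure D4:**
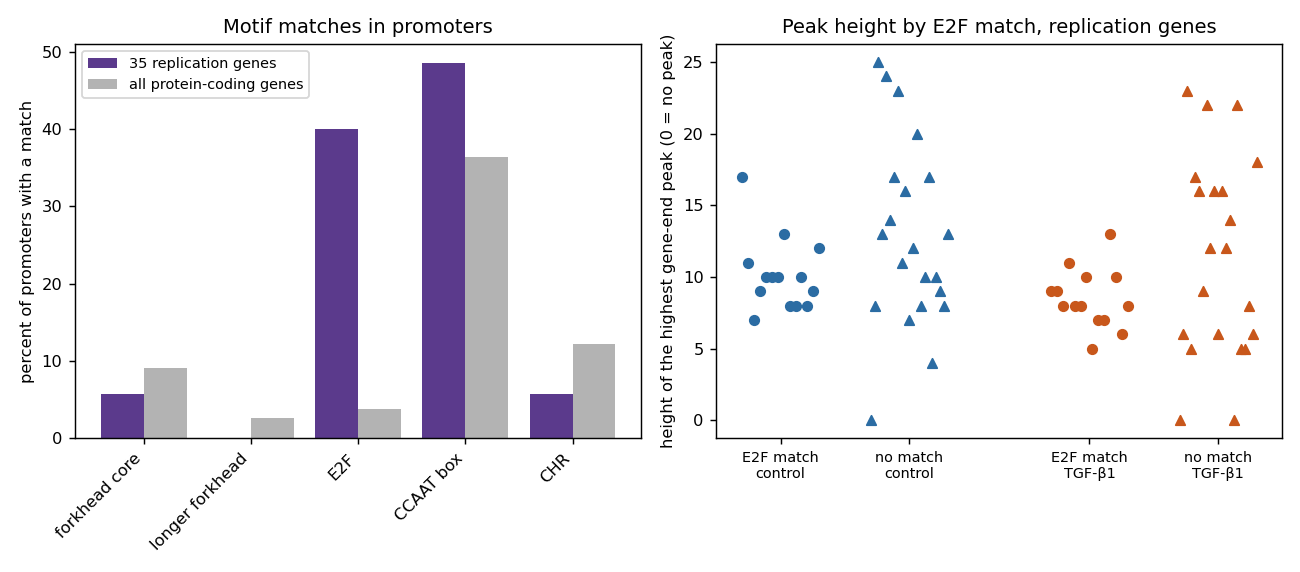
Left, percent of promoters (250 bases before to 50 after the start) with a match to each motif, for 35 replication genes (purple) and all 15842 protein-coding genes with a promoter sequence (grey). Right, height of the highest gene-end peak of the replication genes with and without an E2F match, each point a gene, in the control list (blue) and the treated list (orange); genes with a match stay at or below 17 and 13.

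A second list of 40 replication genes outside the first, such as fork protection, chromatin assembly and nucleotide enzymes, had more strong peaks. It was drawn up by hand with earlier results of these data known, and it also holds E2F1, SLBP, ESCO2 and CDCA5. A gene-end peak was found for all 40 in the control and 39 in the treated list, against 75.3% and 74.6% of all protein-coding genes. A strong one was found for 12 and 14 of the 40, against 17.0% and 15.7%, and for 11 in both lists, against 11.9%. The medians were 11.5 and 12. TOPBP1, a scaffold of helicase activation and checkpoint signalling, had 59 and 33 at a site shared with TF and LOC124909487. TK1, thymidine kinase, had 54 and 40 at a site shared with AFMID. POLE3, an accessory subunit of polymerase epsilon, had 40 and 46, and RNASEH2B, an RNase H2 subunit, had 31 and 28. DBF4B, the paralog of DBF4, had 8 in the control list and none with TGF-β1. The difference between the lists of 39 and 40 genes was not tested.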

How the data were processed

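FOXK1 chromatin immunoprecipitation was compared with input in HK-2 cells with and without TGF-β1, 1 library each. The tools named in the submitters' processing notes are MACS2 2.1.1.20160309 and bcl2fastq 2.17, with the build hg38; the aligner, read filters and peak threshold are not given in the sources used here. The deposited signal of a peak is its pileup height as the authors gave it (whole numbers, the lowest being 3), with peaks listed per condition and called against that condition's input, per the peak names in the files. The labels gave the groups. Depth per library is not given there, so the precision of a height is unknown.

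The lists held 381700 and 439136 peaks on 24 assembled chromosomes (control and TGF-β1); 394 and 506 peaks on unplaced contigs were left out. Starts were read as counting from 0, which the files do not state, so starts carry an uncertainty of 1 bp. Peaks were assigned to RefSeq gene ends (GRCh38.p14, the coordinates of hg38) at 1 kb under Python 3.11.15 (scipy 1.17.1, pandas 2.3.3, numpy 2.4.6, matplotlib 3.10.9). Among peaks tied in height, one that overlapped the other list's peak was taken. Lists overlapped at a minimum of 1 bp. Neighbours were protein-coding genes. Where RefSeq gave several starts, the promoter nearest the annotated gene end was used for motifs. The assignment was tested on simulated data. Every gene of the list was named, and positions were given for those strong in either list. The 39 genes and the second list of 40 genes were chosen with earlier results of these data known. Alternatives were other windows, starts only, other height limits and a stricter overlap.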

Additional observations from a re-analysis of the deposited data

How the results depend on the processing

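The counts of genes with a gene-end peak, of strong peaks and of overlapping peaks stayed within 1.5 times, and the medians within their 95% interval, with windows of 500 bp or 2 kb and with starts only. With 2 kb, 39 and 38 genes had a peak; with starts only, 34 and 32 of the 35 with a start did. The strong limit set the strong counts. With the 5000th highest peak as limit they were 3 in the control list, 3 in the treated list and 2 in both, and with the 20000th they were 13, 14 and 9. Shares of all protein-coding genes at these other limits were not computed, so the counts cannot be set against a background. With only peaks of height 10 or more, 24 genes had a gene-end peak in the control list (39.9% of all genes), 17 in the treated list (32.7%) and 14 in both, and the TGF-β1 median was 16, since lower peaks were removed. With an overlap of at least 50% of each peak, 11 genes had overlapping peaks in place of 26. The share of all protein-coding genes at that overlap was not computed, so this count has no background. Without shared peaks, added after the values were seen, the strong counts were 3 in the control list and 1 in both, again with no share of all genes computed. With every annotated start searched for E2F motifs, also added later, 3 genes with a match were strong in either list in place of 1, with heights from gene ends or from starts. No paired analysis was possible because each condition had 1 library. Depth is unknown, so a gene in 1 list only cannot be told apart from a difference in depth.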
